A study of Drosophila melanogaster with 3 samples.

Results

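The regions described are 992 Dip3 binding peaks whose summits lay 1 to 500 bp upstream of the nearest transcript start of a protein-coding gene, outside pairs of divergent promoters. They came from the 3741 peaks on genome build dm6 that passed a threshold on the irreproducible discovery rate (IDR), which scores whether regions rank alike in the replicates. A summit counted as divergent when it lay between a minus-strand start on its left and a plus-strand start of another gene on its right, at most 1000 bp apart. The 992 peaks were 26.5% of the IDR set (exact 95% interval 25.1 to 27.96%). Divergent promoters held 936 peaks, 219 summits lay 0 to 500 bp downstream of the nearest start, and 1594 lay farther away and are called distal. The IDR peaks were measured by chromatin immunoprecipitation and sequencing (ChIP-seq) in 3 biological replicates of 1 group, whole Drosophila melanogaster embryos of both sexes aged 0 to 24 h. All embryos were of the strain Dip3-GFP, a transgenic line in which GFP is joined to the C-terminus of Dip3 and the insertion targets the gene Dlip3, and an antibody against GFP was used. The promoter that drives the fusion is not given in the labels, and whole embryos mix all cell types, so a peak cannot be assigned to a tissue. No second condition was analysed here, so the comparisons below are between classes of peaks within each replicate.

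Dip3 belongs to a family of proteins that join a MADF domain, which contacts DNA, to a BESS domain, which contacts other proteins, and it is known as a partner of Dorsal, the Rel-family factor of the dorsoventral axis. A non-divergent promoter drives 1 gene, and the sequence upstream of its start is where core promoter factors and sequence-specific regulators bind. Fly promoters of widely expressed genes are known for the DNA replication-related element (DRE), for Ohler motifs 1, 6 and 7 and for sites of the insulator protein BEAF-32, whereas TATA boxes and GAGA factor sites are known from regulated genes.

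Sequences from summit windows show the kinds of site that the results turn on. Each is read 5′ to 3′ on the strand of the gene, from the summit and 50 bp on either side of it, shortened where an annotated UTR began. The genome was Release 6, the same as dm6. The first pair belongs to the strongest members that could be shown, and capitals are absent because no motif is pointed out. The window at CG14100 spans chr3L:19590578-19590678 between genes and that at ph-p, a Polycomb protein gene, spans chrX:2137278-2137378 in an intron.
CG14100: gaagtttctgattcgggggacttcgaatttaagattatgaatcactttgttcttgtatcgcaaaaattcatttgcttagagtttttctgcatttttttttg
ph-p: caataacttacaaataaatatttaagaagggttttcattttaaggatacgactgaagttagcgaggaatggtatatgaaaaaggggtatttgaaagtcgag
The next sequences hold core promoter or insulator motifs in capitals, a DRE at Hsp110 (chr3L:14036925-14037018), the core of Ohler motif 1 at Rnp4F (chrX:5322697-5322760), Ohler motif 7 at Fancm (chr3R:21482022-21482122) and the CTCF core at Rlip (chr3R:21017629-21017683). All of these summits were intergenic. Only the motif named for a window is in capitals. Other matches stay in lower case, such as a DRE at Rnp4F and a CTCF core at Fancm.
Hsp110: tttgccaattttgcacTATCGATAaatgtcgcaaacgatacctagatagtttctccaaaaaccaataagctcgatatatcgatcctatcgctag
Rnp4F: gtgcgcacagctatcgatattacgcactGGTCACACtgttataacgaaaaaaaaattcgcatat
Fancm: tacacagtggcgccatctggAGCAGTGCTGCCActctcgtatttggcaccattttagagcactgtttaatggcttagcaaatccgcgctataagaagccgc
Rlip: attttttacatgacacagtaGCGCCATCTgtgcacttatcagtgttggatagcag
The last set holds 8-base words that were common in the member windows. Capitals mark CAACACTG or its reverse complement CAGTGTTG at Pi3K21B (chr2L:297811-297879), RpL23A (chr3L:1668720-1668820) and Phs (chr3L:15619740-15619840), and CCACTGTG, the reverse complement of CACAGTGG, at fkh (chr3R:28585446-28585546).
Pi3K21B: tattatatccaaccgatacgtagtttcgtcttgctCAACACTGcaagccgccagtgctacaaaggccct
RpL23A: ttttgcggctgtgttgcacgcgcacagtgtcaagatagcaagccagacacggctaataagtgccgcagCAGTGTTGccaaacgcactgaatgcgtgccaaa
Phs: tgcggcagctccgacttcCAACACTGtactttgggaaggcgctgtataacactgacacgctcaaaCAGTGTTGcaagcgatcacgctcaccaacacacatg
fkh: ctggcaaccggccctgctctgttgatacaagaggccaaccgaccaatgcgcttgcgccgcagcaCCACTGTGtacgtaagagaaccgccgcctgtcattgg
CG14100, ph-p and Hsp110 were among the 20 strongest members and Rnp4F was the strongest member with its motif. Fancm, Rlip, Pi3K21B, Phs and the word at fkh were chosen after their values were seen, as the strongest members with a match outside UTRs among those that could be shown.

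A property of the replicates touches every result. Each replicate list held 30000 regions, of which 2480, 3226 and 8812 had a q-value of at most 0.01 in replicates 1, 2 and 3, so replicate 3 stood apart. Read depth is unknown from peak lists. A replicate's top list is defined here as its 3741 strongest regions by the signal value of the authors' caller, as many as the IDR set holds, and an IDR peak counted as present when it overlapped such a region by at least 1 bp. The IDR set consists of the top 3741 regions of the list called on all replicates together, so some overlap with the replicates is built in. Of the 992 members, 786 were in the top list of replicate 1, 833 in that of replicate 2 and 813 in that of replicate 3. In all 3 lists were 601 members, 60.6% (57.5 to 63.6%), against 58.7% of all IDR peaks and 63.6% of divergent peaks. Without replicate 3 the share in both remaining lists was 71.3%. Another 247 members were in 2 lists, 135 in 1 and 9 in none.

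The peaks clustered close to the start. Summits lay at a median of 156.5 bp upstream, with quartiles at 258 and 81 bp, and 609 of 992 lay within 200 bp. The bin of 51 to 100 bp held most peaks, 172, and the bin of 451 to 500 bp held 29. At the outer limit, those 29 peaks had a median signal of 140, and the 43 peaks within the next 50 bp outward, just outside, had 141. On the other side, 85 peaks had summits 0 to 49 bp downstream of the start, fewer than the 152 at 1 to 50 bp upstream.

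Of the 992 summits, 561 were intergenic (56.6%), 325 were in introns (32.8%), 51 in 5′ UTRs, 33 in non-coding exons, 19 in 3′ UTRs and 3 in coding exons. The nearest start was the first start of its gene for 668 members, and an internal, alternative start for 324. Members at internal starts lay farther out, at a median of 203 bp, against 136 bp at first starts, with median signals of 150 and 143. Of 591 members between genes, 442 had a tandem neighbour upstream with a median gap of 524.5 bp between the genes, and 149 had a head-to-head neighbour with a median gap of 3066 bp. The rule leaves out summits between divergent starts at most 1000 bp apart. The tandem majority and the long head-to-head gap therefore follow in part from the rule. The 992 peaks served 909 genes, which is 6.52% of the 13945 protein-coding genes on the main arms. Of these genes, 840 had 1 member, 58 had 2 and 11 had 3 or more. Rtnl1, which encodes the reticulon that shapes the endoplasmic reticulum, had the most, 5, with signals between 93.1 and 986. Members had another IDR summit within 1000 bp in 15.6% of cases, near the 16.7% of all IDR peaks. The X chromosome held 190 members, 19.2% (exact 95% interval 16.7 to 21.7%), against 12.7% of divergent peaks (10.6 to 15.02%) and 19.0% of all IDR peaks. In the set, 4 members (0.40%) had a stretch of 30 bases in the summit window that occurs elsewhere in the genome, near the 0.45% of all IDR peaks. None of the 100 strongest did, which at such a low share does not set them apart.

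**Figure D1:**
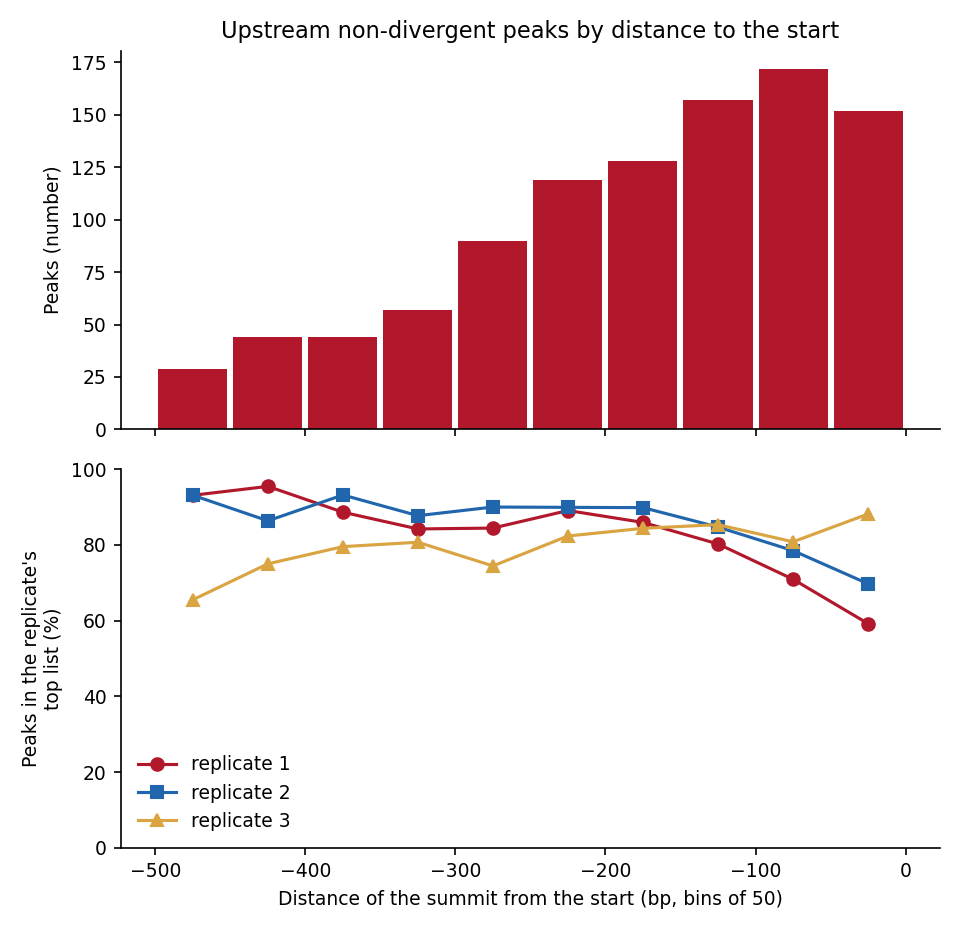
Number of upstream non-divergent peaks (top) and share of them in the top list of each replicate (bottom, %) by distance of the summit from the start, in bins of 50 bp. The innermost bin has 59.2% in replicate 1 and 88.2% in replicate 3, and the outermost bin has 93.1% in replicate 1 and 65.5% in replicate 3.

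Distance from the start separated the replicates. Among the 152 members within 50 bp of the start, 59.2% were in the top list of replicate 1, 69.7% in that of replicate 2 and 88.2% in that of replicate 3. Among the 29 members at 451 to 500 bp the shares were 93.1%, 93.1% and 65.5%, so the order of the replicates turned round along the window. The plot of shares by distance shows this. Grouped at 100 bp, a limit chosen after the data were seen, 324 members lay near the start and 668 lay farther out. Near members had a median signal of 133 and 49.1% (43.5 to 54.7%) were in all 3 top lists. The farther members had a median signal of 155 and 66.2% (62.4 to 69.8%) were in all 3. The lists miss near members mainly in replicates 1 and 2. In replicate 1, 82.4% of near members were listed anywhere, against 93.4% of the farther members. What set replicate 3 apart was not tested.

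Each of the 20 strongest members was in the top lists of all 3 replicates. The signal of the 992 ran between 85.1 and 2759.5 with a median of 146, against 159 at divergent, 134 at downstream and 130 at distal peaks. CG14100 had the highest signal of the whole IDR set, 2759.5, and ranked 1, 1 and 4 in replicates 1, 2 and 3. Its summit lay 104 bp upstream of the start. ph-p encodes a subunit of Polycomb repressive complex 1, and its peak, 473 bp upstream of an internal start, had a signal of 1749 and ranks 6, 4 and 10. Atf3, a bZIP transcription factor gene, had a signal of 1183 and ranks 15, 24 and 34. These ranks were close across replicates. Of the 20, 6 ranked best in replicate 3, namely Rubicon, px, Hsp110, CG1635, CG18549 and Fkbp14, and 9 ranked lowest there, among them eIF6 with ranks 25, 21 and 60. Rubicon and Hsp110, which differed most, are named for that after their values were seen. Rubicon, an inhibitor of autophagy, ranked 72, 77 and 5, with a signal of 1152. Hsp110, a nucleotide exchange factor of heat shock chaperones, ranked 162, 108 and 6, with a signal of 1002. Their summits lay 84 and 44 bp from the start, and the other 4 of the 6 lay more than 100 bp away. Of the 9 that ranked lowest in replicate 3, 2 also lay within 100 bp, eIF6 at 98 bp and Hpf1 at 99 bp.

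Other genes among the 20 were px, Sox14, a transcription factor of metamorphosis, amon, a prohormone-processing protease, larp, an RNA-binding protein, Msp300, a large protein of the nuclear envelope, and eIF6, which keeps ribosomal subunits apart. Their signals lay between 807 and 1091. At the weak end, Arl4, Crk, ND-13B, step and Top1 are 5 of the 9 members in no top list, with signals between 89.2 and 96.3. None of the 5 but Top1 was listed at all in replicate 1, where Top1 ranked 5911. Several genes with more than 1 member used alternative starts. dnc, the cAMP phosphodiesterase gene, had 4 members with signals of 674, 443, 163 and 106, and the one of 443 and the one of 106 overlapped the same region in replicates 1 and 2. brwl, a gene of the MADF-BESS family to which Dip3 belongs, had 3, with signals of 668, 293 and 100, of which the strongest ranked 93, 93 and 88 and the other two overlapped the same region in each replicate.

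**Figure D2:**
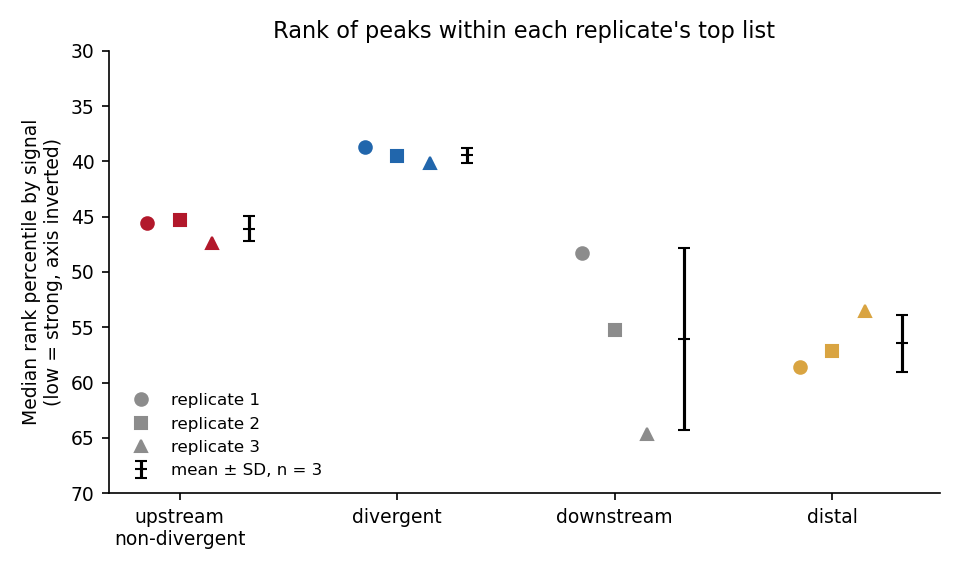
Median rank percentile by signal within each replicate's top list (y axis, inverted, low is strong) for 4 classes of peaks, with 1 point per replicate and the mean ± SD (n = 3). Upstream non-divergent peaks lie between 45.3 and 47.4 and divergent peaks between 38.7 and 40.2.

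Each replicate was also classified on its own, which used no pooled data. The top lists held 894, 917 and 1031 upstream non-divergent regions in replicates 1, 2 and 3, on average 25.3% ± 1.96 of a list (SD, n = 3). Replicate 3 held most, and its summits were nearest to the start, at a median of 131 bp, against 184.5 and 176 bp in replicates 1 and 2. Within top lists of 3741 regions, upstream non-divergent regions ranked below divergent ones in every replicate. Their median rank percentiles, where a low value is a strong signal, were 45.6, 45.3 and 47.4, and those of divergent regions were 38.7, 39.5 and 40.2. The mean difference was 6.62 percentage points, between 5.79 and 7.23 over replicates (exact two-sided sign-flip permutation test, p = 0.25, n = 3). That is the smallest p that 3 replicates allow, and with adjustment by Benjamini-Hochberg over the 102 class comparisons computed it is 0.39, so no comparison here could pass 0.05. Replicates are samples of the same strain, and the p-values measure only the spread among them. Downstream regions had percentiles of 48.3, 55.2 and 64.6, a mean difference of -9.96, between -17.2 and -2.69, and distal regions differed by -10.4 on average, between -13.0 and -6.17. Among the top 2000 regions the difference from divergent regions was 1.39 and its sign varied, between -3.20 and 4.57 (exact p = 0.75, n = 3), and with divergent starts at most 2000 bp apart it was 3.91. The difference from downstream regions also varied in sign among the top 2000 regions, at -5.37 between -12.9 and 2.45, and with divergent starts at most 500 bp apart, at -6.07 between -15.6 and 1.24 (exact p = 0.5 each, n = 3), and was -6.32 without replicate 3. The plot of rank percentiles shows that the 3 values of upstream non-divergent regions did not overlap those of divergent regions, while the downstream regions spread widely.

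DRE, the BEAF-32 core, Ohler motif 7 and the motif 1 core were more common in the member windows than in windows at unbound promoters, and the Rel-family site was not. All motifs were searched on both strands within 50 bp of the summit. The unbound set was 11997 non-divergent starts with no IDR summit within 1000 bp, read at 156 bp upstream. Of the 992 members, 324 lay within 100 bp of the start, where these 4 promoter motifs were more common at unbound starts too. The contrast with this unbound set is therefore not matched for distance, and matched shares are given further below. DRE (TATCGATA), the site of DREF, a factor of proliferation and housekeeping genes, was in 3.63% of member windows, 6.41% of divergent windows and 0.66% of unbound windows. The share over all IDR windows was 2.89%, so members were close to that background. The BEAF-32 core CGATA, which lies within TATCGATA, was in 23.8% of members, 30.7% of divergent windows, 13.4% of unbound windows and 20.4% of all IDR windows. Ohler motif 7 was in 4.94% of members, 8.55% of divergent windows, 1.02% of unbound windows and 4.04% of all IDR windows. The motif 1 core GGTCACAC, bound by M1BP at housekeeping promoters, was in 2.22% of members, 2.24% of divergent windows, 0.39% of unbound windows and 1.44% of all IDR windows. In the own lists of replicates 1, 2 and 3 it was in 0.67%, 1.64% and 2.81% of upstream non-divergent windows. The shares of divergent windows there were higher, at 2.65%, 1.72% and 4.04%. A Rel-family site, the type that Dorsal binds, was in 0 of 992 member windows, which allows a share of up to 0.302%, in 0.41% of unbound windows and in 0.160% of all IDR windows. The letters searched cover only part of the sites that Rel-family factors bind.

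The other motifs searched differed in direction from each other. GAGAGAG, the GAGA factor site, was in 2.42% of members, 0.21% of divergent windows, 3.61% of unbound windows and 1.23% of all IDR windows. The CTCF core AGNTGGCGC was in 1.81% of members, 0.64% of divergent windows, 0.38% of unbound windows and 1.44% of all IDR windows. TATAAA was in 15.4% of members, 19.3% of divergent windows, 15.8% of unbound windows and 17.4% of all IDR windows. The initiator core (Ohler motif 4) was in 1.21% of members, 2.78% of divergent windows, 2.04% of unbound windows and 2.19% of all IDR windows. The E-box CAGCTG was in 5.34% of members, 6.09% of divergent windows, 4.62% of unbound windows and 4.62% of all IDR windows. The AP-1 site TGANTCA was in 2.42% of members, 2.35% of divergent windows and 2.51% of all IDR windows. CCAAT was in 18.2% of members, 18.4% of divergent windows and 18.4% of all IDR windows. In the replicates' own lists, DRE averaged 3.63% ± 1.32 of upstream non-divergent windows and 6.42% ± 1.59 of divergent windows, a difference of -2.79 points with the same sign in 3 of 3 replicates (SD, n = 3; exact sign-flip p = 0.25). Ohler motif 7 averaged 4.05% ± 0.59 of upstream non-divergent and 8.68% ± 1.08 of divergent windows, a difference of -4.63 points, also in 3 of 3 (exact p = 0.25). GAGAGAG was higher than in divergent windows by 2.83 points and the CTCF core by 1.08 points, each in 3 of 3 replicates (exact p = 0.25 each, adjusted 0.39). The CTCF core was more common still in distal windows, at 1.97%, 1.82% and 1.70% in replicates 1, 2 and 3. In upstream non-divergent windows it was at 1.68%, 1.53% and 1.45%. GAGAGAG was less common in distal windows, at 0.71%, 1.14% and 2.70%, against 2.57%, 1.96% and 4.66%.

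**Figure D3:**
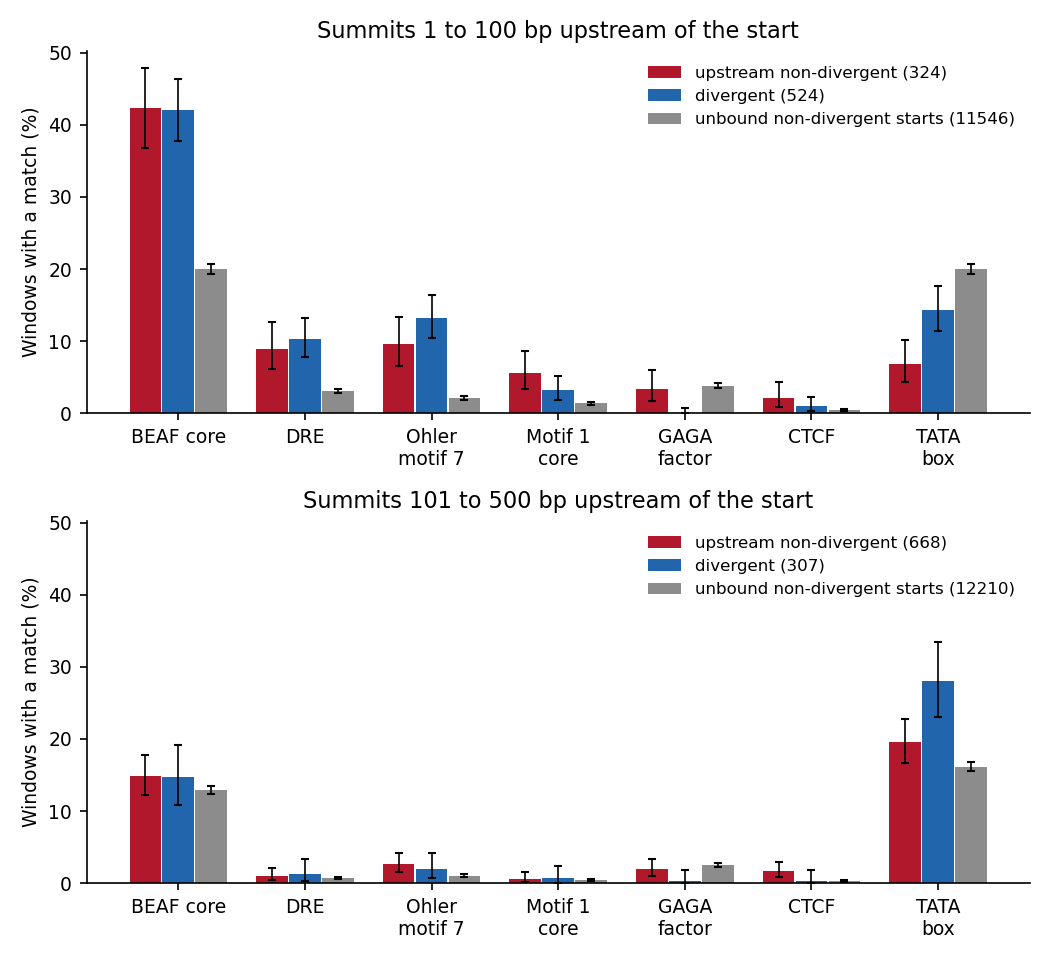
Share of summit windows with a motif match (%, bars, with exact 95% intervals for counting error) for upstream non-divergent peaks, divergent peaks and unbound non-divergent starts, with summits up to 100 bp upstream (top) and farther upstream (bottom). The BEAF core is in 42.3% of near member windows and 42.0% of near divergent windows, and in 14.8% and 14.7% farther out.

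The motif content followed the distance from the start. Among the 324 near members, CGATA was in 42.3%, against 14.8% of the 668 farther members. DRE was in 8.95% of near and 1.05% of farther members, Ohler motif 7 in 9.57% and 2.69%, and the motif 1 core in 5.56% and 0.60%. Unbound starts read at 53 bp upstream had CGATA in 20.02%, DRE in 3.08%, Ohler motif 7 in 2.08% and the motif 1 core in 1.38% of windows. At 217 bp upstream the unbound shares were 12.9%, 0.75%, 1.02% and 0.38%, near those of the farther members for CGATA, DRE and the motif 1 core. Divergent summits lie nearer to a start, at a median of 72 bp, and at equal distance the shares of CGATA and DRE were closer between the classes, while the differences in TATAAA and GC content were larger. Near divergent windows held CGATA in 42.0% and DRE in 10.3%, and farther ones in 14.7% and 1.30%. In the replicates' own lists the DRE difference was -1.04 points near the start, between -1.49 and -0.57. Farther out the sign turned, to 0.13, between -0.77 and 1.05. The Ohler motif 7 difference remained near the start, at -4.52 points, between -5.78 and -3.56, and was -0.27 farther out, between -0.79 and 0.002. TATAAA was lower in members than in divergent windows at both distances, with differences of -6.27 points near the start and -10.5 farther out, in 3 of 3 replicates each (exact p = 0.25, adjusted 0.46 over 68 comparisons). The plot of motif shares gives the values with their intervals.

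Base composition differed between near and farther members. The windows of near members had a mean GC content of 43.5% ± 8.41 (SD over 324 windows), those of farther members 34.7% ± 8.97 (668 windows), and flanks 500 bp away 44.7% and 43.0%. All member windows averaged 37.6%, against 36.4% in all IDR windows, 35.0% in distal windows and 39.3% in unbound windows read at 156 bp upstream. The 100 strongest members averaged 33.4% in the summit window and 43.4% in the flanks, and the 100 weakest averaged 39.5%. Of the 100 strongest windows, 15 held CGATA, 3 held DRE, and 0 held Ohler motif 7 or the motif 1 core, which allows up to 3.00% for each. In the replicates' own lists upstream non-divergent windows averaged 37.7% GC and divergent windows 36.2%, a difference of 1.55 points between 0.96 and 2.04 (exact p = 0.25, n = 3). At equal distance the difference was 3.41 points near the start and 4.54 farther out, in 3 of 3 replicates.

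**Figure D4:**
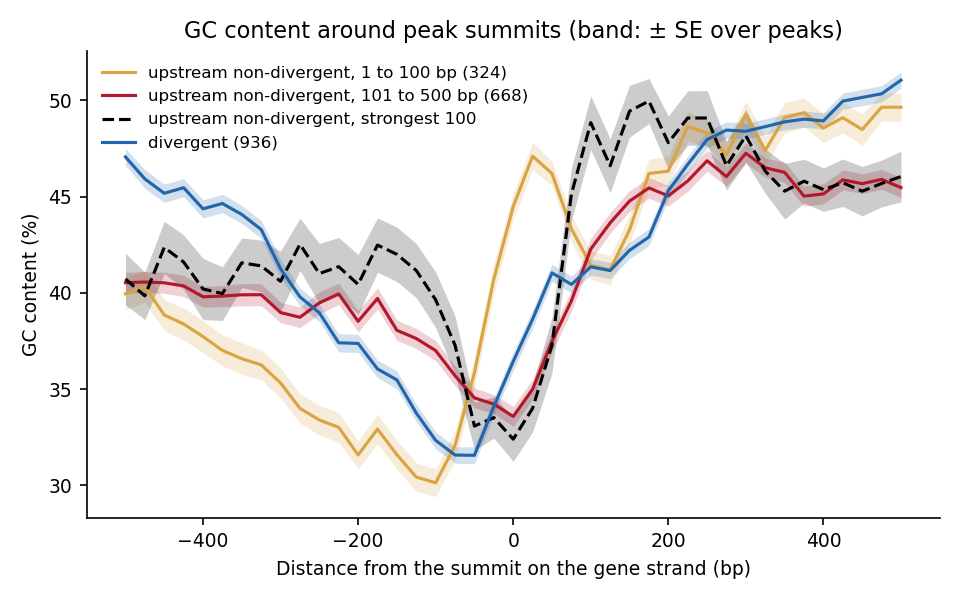
GC content (%) in 25-bp steps around peak summits, on the gene strand with the start to the right, as means with bands of ± SE over peaks. Summits of members over 100 bp upstream sit at the lowest point, 33.6%, whereas near members have 44.5% at the summit and their lowest point, 30.1%, lies 100 bp farther upstream.

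The plot of GC content around the summits shows that both groups had an AT-rich stretch upstream of the start. In farther members the summit coincided with it, with 33.6% GC at the summit and 42.3% at 100 bp toward the gene. In near members the stretch lay 100 bp upstream of the summit, with 30.1% GC there, 44.5% at the summit and 47.1% at 25 bp downstream of it.

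Some short words were shared by many summit windows. Of 240 words of 8 bases present in at least 2% of member windows, the 10 with the largest ratio to unbound windows were taken, so that ratio is a description and the words favour the members by choice. They were CAACACTG, ACTATCGA, AACTATCG, AACACTGC, CACAGTGG, CACTGTGC, CAGCACTG, ATCGATAG, AGTGTTGC and CATCGATA. At least 1 was in 173 of 992 member windows (17.4%), in 18.6% of divergent, 4.27% of distal and 2.79% of unbound windows, and in 11.9% of all IDR windows. The 4 words that contain ATCG were in 75 members and the 5 that contain CACTG or CAGTG in 103, with 12 members holding both kinds, and AGTGTTGC contains neither. The leading word, CAACACTG, was in 45 members, 4.54%, and in 4.91% of divergent, 0.25% of distal, 0.33% of unbound and 2.83% of all IDR windows. It had 8.46 times as many matches per base within 50 bp of the summit as at 150 to 250 bp, which the choice of the word from these central windows favours. Among motifs not chosen from these windows, that ratio was 5.45 for the CTCF core (22 and 8 matches), 3.44 for DRE and 3.17 for Ohler motif 7. The ratio was 2.08 for CGATA, 1.56 for the motif 1 core, 1.14 for TATAAA, 1.07 for CAGCTG and 0.43 for GAGAGAG. DRE matches were not centred on the summit, with 5 within 10 bp of it and 12 at 50 to 70 bp toward the gene. For CGATA these counts were 63 and 99. A T stood 4 bases before CAACACTG in 33 of 47 matches.

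Of the 45 members with CAACACTG, 37 lay within 100 bp of the start. They had signals between 85.7 and 465 with a median of 141, and 32, 33 and 42 were in the top lists of replicates 1, 2 and 3. Pi3K21B, which encodes a regulatory subunit of phosphoinositide 3-kinase, had the strongest of the shown windows, with a signal of 465 and ranks 161, 263 and 268. Near the start the word was in 11.4% of members, 7.44% of divergent and 0.92% of unbound windows. In the replicates' own lists the near difference from divergent windows was 3.57 points, between 3.07 and 4.30 (exact p = 0.25, n = 3). CACAGTGG was in 2.52% of members, 0.75% of divergent windows, 0.33% of unbound windows and 1.55% of all IDR windows. It was in 2.78% of near and 2.40% of farther members, against 1.15% and 0.33% of divergent windows. In the replicates' lists it averaged 2.69% ± 0.32 upstream and 0.90% ± 0.20 at divergent summits (exact p = 0.25, n = 3), and 1.97% ± 0.35 at distal summits. Both words were chosen for being common in member windows of these same replicates, and the limit of 100 bp after the data were seen. Their differences from divergent windows are therefore descriptions that favour the members by choice, and the p-values add no support.

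Ribosomal protein genes had members more often than most lists. Of 92 cytoplasmic ribosomal protein genes, 17 had a member (18.5%, 11.1 to 27.9%), against the background of 6.52% of all protein-coding genes. RpL23A, RpL24 and RpL22 of the large subunit had the strongest, with signals of 448, 325 and 311. RpL23A ranked 318, 246 and 159 in replicates 1, 2 and 3, RpL24 714, 1190 and 158, and RpL22 458, 761 and 466. Of the 17 peaks, 14 lay within 100 bp of the start, against 32.7% of all members, and 11, 14 and 15 were in the top lists of replicates 1, 2 and 3. Windows of these 17 peaks held CGATA in 10, DRE in 3 and CAACACTG in 2 cases. Of all 992 members, 236, 36 and 45 held them. Among all members within 100 bp of the start the shares were 42.3%, 8.95% and 11.4%. With divergent starts at most 500 bp apart, 27 genes had a member (29.3%, 20.3 to 39.8%), against 7.85% of all genes. With replicate 1 left out and peaks kept only when in both remaining top lists, 14 genes were left (15.2%, 8.58 to 24.2%), against 4.56% of all genes. Without replicate 2 or without replicate 3, 9 were left (9.78%, 4.57 to 17.8%), against 4.25% and 4.63% of all genes, so the interval without replicate 3 spans its background. Mitochondrial ribosomal protein genes had 2 of 73 (2.74%), the weak mRpL10 and mRpL13 with signals of 97.4 and 94.1. Translation factors had 4 of 51, eIF6, eEF1gamma, eEF1alpha1 and eIF2A, all within 100 bp of the start.

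**Figure D5:**
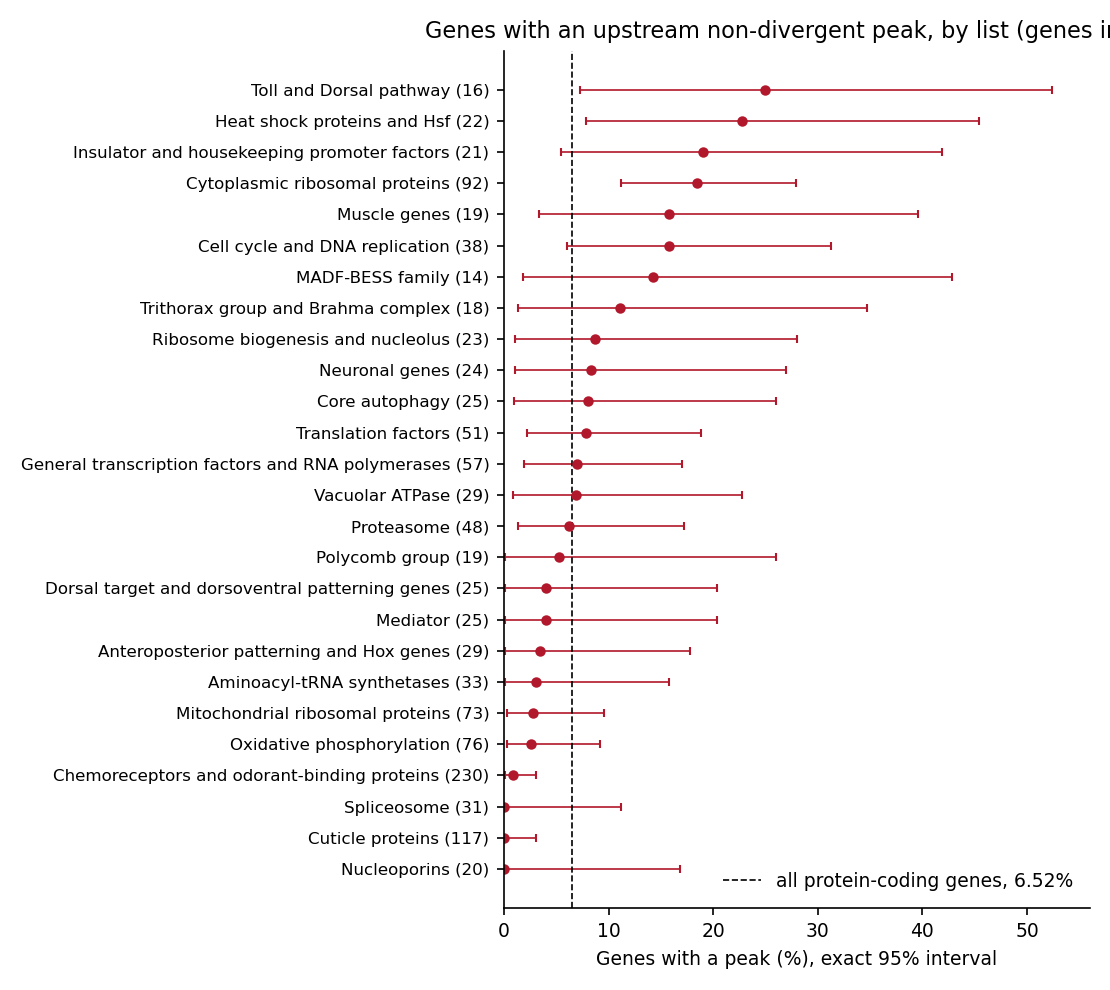
Share of the genes of 26 lists with an upstream non-divergent peak (%, points, with exact 95% intervals for counting error), with the number of genes in the list in brackets and the share of all protein-coding genes, 6.52%, as a dashed line. Toll and Dorsal pathway genes have the highest share, with 4 of 16, cuticle proteins have 0 of 117, and most intervals span the dashed line.

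The shares of the heat shock and Toll pathway lists were also above the background of 6.52%, with intervals for counting error that exclude it. That is a description and no test, because genes are not replicates and 26 lists were read without correction. The lists were also chosen with earlier results of these data known. In all 3 top lists were 3 of the 5 heat shock members and 1 of the 4 Toll pathway members. Heat shock genes had 5 of 22 with a member (22.7%, 7.82 to 45.4%). These were Hsp110, the small heat shock protein genes Hsp27, Hsp26 and Hsp22, and the mitochondrial chaperonin gene Hsp60A, with signals between 1002 at Hsp110 and 96.9 at Hsp60A. Hsp27 and Hsp26 lay 135 and 137 bp upstream of their starts. The Toll and Dorsal pathway, in which Dip3 has its known partner, had 4 of 16 (exact 95% interval of the share 7.27 to 52.4%). cact encodes the inhibitor that holds Dorsal in the cytoplasm, and its peak had a signal of 438 and ranks 178, 332 and 210. The other members were weak, Myd88 and tub, which encode adaptors of the receptor Toll, with 106 and 96.9, and pip, a sulfotransferase of the eggshell, with 86.8. Of 25 Dorsal targets and dorsoventral patterning genes, 1 had a member, tin, with a signal of 105. Cell cycle and replication genes had 6 of 38 (15.8%, 6.02 to 31.3%), an interval that spans the background, namely Dp, polo, Mcm7, Orc1, Rbf and CycE, with signals between 117 and 413.

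Of the 26 lists, 14 were above 6.52% and 3 had no member. Insulator and promoter factor genes had 4 of 21, row, BEAF-32, pita and Trl, with strongest signals between 86.7 and 277. The MADF-BESS family had 2 of 14, brwl and Coop. General transcription factor and polymerase genes had 4 of 57, among them Polr2F with a signal of 395. Muscle genes had 3 of 19, the titin-like sls with 375, the tropomyosin gene Tm1 with 346 and rols with 151. Neuronal genes had 2 of 24, of which elav, an RNA-binding protein of neurons, had a signal of 481 and ranks 207, 170 and 172. Nucleoporin, cuticle and spliceosome genes had 0 of 20, 0 of 117 and 0 of 31, while 2 of 230 genes of the list of chemoreceptors and odorant-binding proteins had one. Most intervals span the background, as the plot of gene lists shows.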

How the data were processed

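ChIP-seq of Dip3-GFP was analysed from peak lists of 3 biological replicates of 1 group, which carry no read counts, so depth is unknown and precision rests on numbers of peaks and replicates. Per the labels and the submitters' file records, the authors called regions on each replicate and on pooled replicates and derived the IDR set from them. For aligner, caller and threshold, names or values were not given in the sources used here. The signal values, deposited by the authors' caller, rank regions within a list, and the authors' deposited −log10 q values served to count regions. The control sample and signal tracks were not analysed here. Starts came from Ensembl release 115 (BDGP6 patch 54) and sequence from Release 6. Positions count from 1. Intervals are exact Clopper-Pearson 95% intervals for counting error only, and zero counts allow 3 counts of the total. Since neither peaks nor genes are replicates, classes were compared within replicates, with two-sided exact sign-flip tests and Benjamini-Hochberg adjustment (Python 3.11.15, pandas 2.3.3, scipy 1.17.1, statsmodels 0.14.6). Classification, overlap and motif search were tested on simulated data. Named genes were the 20 strongest members, up to 3 per list, the strongest per motif, 5 genes with several members and 5 members in no top list, and others named are list members. The members and lists were chosen with earlier results of these data known. Of the list symbols, 8 matched no gene.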

Additional observations from a re-analysis of the deposited data

How the results depend on the processing

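Of 86 alternative settings for 8 results, 71 kept the direction or stayed near the reported value, 14 moved it and 1 reversed it. These labels were lenient. Differences between classes were judged only by the sign of their mean, also where replicates varied in sign. Their sign was the same in all 3 replicates under the main setting, so leaving 1 replicate out could not reverse them. Counts were judged by their fold change, and 696 to 1189 members passed as near 992. The number of members, 992, became 609 with an upstream window of 200 bp and 521 with the upper 50% of the IDR set, and lay between 647 and 707 when a replicate was left out and membership required both others. It lay between 746 and 1189 with other divergent limits, starts or a window of 1000 bp. The share of members in all 3 top lists, 60.6%, became 36.4% with the top 2000 regions, 70.97% with the top 5000, 88.9% with the whole lists, 45.1% with a reciprocal overlap of 50% and 56.98% with the window of 200 bp. The share in both remaining lists was 65.2 to 71.3% without 1 replicate. Ribosomal protein genes with a member, 17, became 27 with divergent starts at most 500 bp apart, and lay between 9 and 14 without 1 replicate. The DRE difference from divergent peaks reversed to 0.13 points for summits more than 100 bp upstream, a setting added after seeing the data, and the cause was not tested. The mean rank difference from divergent peaks lay between 1.39 and 9.73, the motif 7 difference between -10.8 and -0.27 and the GC difference between 0.97 and 4.54 points over the settings tried. Classes were compared within each replicate throughout, and with 1 group there were no samples of another group to pair. Depth, which these lists do not give, limits what a missing peak shows, and 3 replicates cannot reach a p under 0.25.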
